A study of Mus musculus with 15 samples.

Results

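Progression from G1 into S phase depends on the D-type cyclins, which bind and activate the kinases CDK4 and CDK6. The active kinases phosphorylate the retinoblastoma protein, encoded by Rb1, and so release E2F transcription factors. INK4 inhibitors such as the products of Cdkn2c and Cdkn2d block CDK4 and CDK6, and the Cip/Kip inhibitors encoded by Cdkn1a and Cdkn1b act on cyclin and CDK complexes more widely. In the mouse thymus, cyclin D3 is known for its part in the expansion of immature thymocytes before the double-positive stage. The mRNA levels of 10 genes of this machinery, chosen by gene symbol, were compared: the D cyclins Ccnd1, Ccnd2 and Ccnd3, the kinase genes Cdk4 and Cdk6, the inhibitors Cdkn1a, Cdkn1b, Cdkn2c and Cdkn2d, and Rb1. They are 10 of 18193 genes measured, and all 10 were among the 11871 bright enough to be tested. Each was read from its probe set with the highest mean signal, and the main disagreements of other probe sets are given.

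RNA came from thymocytes sorted from young adult mice of the C57BL/6 background, in 5 groups with 3 arrays each. PreDP cells (CD69- TCRβ-, DP cells before selection) and PostDP cells (CD69+ TCRβ+, DP cells after selection) came from B2m-/- mice, in which selection proceeds on MHC class II alone. Tak1-deficient SM&M1 cells (Qa2- CD69+ CD4SP) came from Tak1f/f CD4Cre mice, in which Cre expressed under Cd4 control deletes the floxed gene of the kinase TAK1 in T-lineage cells. Their Tak1-sufficient counterparts, called SM&M1, and the later M2 cells (Qa2+ CD69- CD4SP) came from Rag2-GFP BAC transgenic mice. For these transgenic mice the labels describe a GFP gate and the exclusion of cells stained for NK1.1, CD25 or GL3, and they describe neither for the Tak1f/f CD4Cre mice. Mouse line therefore changes together with stage between SM&M1 and PostDP and between M2 and PreDP, and the effects of stage and line cannot be told apart there. Loss of TAK1 likewise cannot be told apart from the Cre, the line and the sort that go with it. The labels call the arrays of a group biological replicates and do not state whether each was a separate animal, so p-values reflect how far these arrays spread, and part of that spread may be technical.

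Levels are given throughout as log2(signal + 16), and fold changes on this scale are understated for dim probe sets. Map3k7, the gene of TAK1, read 4.76, 6.07 and 5.35 in the 3 Tak1-deficient arrays, against 10.40, 10.46 and 10.42 in the SM&M1 arrays. Mean B2m was 10.10 in PostDP and 9.67 in PreDP arrays, and single arrays of the other groups read 13.88 to 14.85. Cd8a averaged 9.63 ± 0.51 in Tak1-deficient and 7.79 ± 0.21 in SM&M1 cells (SD, n = 3 each), with no overlap between the arrays. Median signal was 80.5 to 121 in 14 arrays and 168 in Tak1-deficient replicate 2. That array also had an Actb 3'/5' signal ratio of 1.62, against 1.02 to 1.18 in the rest, and correlated with its group at 0.873 and 0.879, whereas every correlation within another group was at least 0.965. Epithelial, dendritic cell and macrophage marker lists were raised in it by a median of 2.08, 1.83 and 1.52 over the PreDP mean. The macrophage list was also raised in Tak1-deficient replicate 3, M2 replicate 1 and SM&M1 replicate 1, by 1.44, 1.08 and 0.95, and by at most 0.34 in the remaining arrays. These 3 arrays also stood apart in another list. Of 11 markers of effector, natural killer T or innate-like cells, 10, 11 and 11 were above the array median in them, against 2 to 7 in every other array.

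Promoter windows were available for 7 of the 10 genes, in 10 windows of 300 bases (250 before to 50 after an annotated start), from RefSeq on build GRCm38.p6. The other 3 genes were Ccnd1, Ccnd2 and Rb1. The 3 windows shown were chosen for the results: those of Ccnd3 and Cdkn2c, which fell together in PostDP cells, and that of Cdk4, whose 4 E-boxes were noticed after the search. The windows are printed 5' to 3' on the strand of the gene, and capitals mark matches to the motifs searched. Their positions are chr17:47504801-47505100 (plus strand, the first of 2 Ccnd3 windows), chr4:109665323-109665622 (minus strand, the second of 2 Cdkn2c windows) and chr10:127063285-127063584 (plus strand, Cdk4).
Ccnd3: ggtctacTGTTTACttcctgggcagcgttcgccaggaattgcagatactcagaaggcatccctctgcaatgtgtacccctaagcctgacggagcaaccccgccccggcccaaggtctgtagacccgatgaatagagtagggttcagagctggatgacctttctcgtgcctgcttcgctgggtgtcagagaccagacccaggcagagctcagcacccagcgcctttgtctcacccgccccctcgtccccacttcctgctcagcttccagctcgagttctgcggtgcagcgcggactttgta
Cdkn2c: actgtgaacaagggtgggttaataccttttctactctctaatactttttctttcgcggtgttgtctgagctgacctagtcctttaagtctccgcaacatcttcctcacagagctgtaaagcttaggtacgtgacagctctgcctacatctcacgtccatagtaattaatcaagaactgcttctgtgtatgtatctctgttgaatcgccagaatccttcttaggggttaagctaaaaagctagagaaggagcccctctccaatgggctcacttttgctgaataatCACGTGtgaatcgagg
Cdk4: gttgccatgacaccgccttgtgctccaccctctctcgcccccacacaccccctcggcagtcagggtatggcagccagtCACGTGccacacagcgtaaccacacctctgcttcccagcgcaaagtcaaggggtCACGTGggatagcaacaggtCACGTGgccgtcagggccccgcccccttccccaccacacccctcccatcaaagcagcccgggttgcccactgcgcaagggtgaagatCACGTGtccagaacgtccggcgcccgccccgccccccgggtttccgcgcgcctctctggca
The 5 motifs were searched as exact letters on both strands, and none of them overlaps another in these windows. They were the E2F forms TTTGGCGC and TTTCCCGC, the E-box CACGTG bound by MYC-family factors, the FOXO core TGTTTAC and an NF-κB form of 10 letters. Of 32851 windows of this length, 0.514%, 1.07%, 7.15%, 3.65% and 0.155% held them, in that order. The Cdk4 window held CACGTG at -172, -118, -98 and -11 from the start site, and 8 of all windows (0.0244%) held at least 4. CACGTG was also found at -220 in the Cdk6 window and at 35 in the Cdkn2c window shown. TGTTTAC was found at -243 in the Ccnd3 window shown. The letters of both E2F forms and of the NF-κB form were in none of the 10 windows, and no window of Cdkn1a, Cdkn1b or Cdkn2d held any of the 5. A match here describes letters and does not show that a factor binds.

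**Figure D1:**
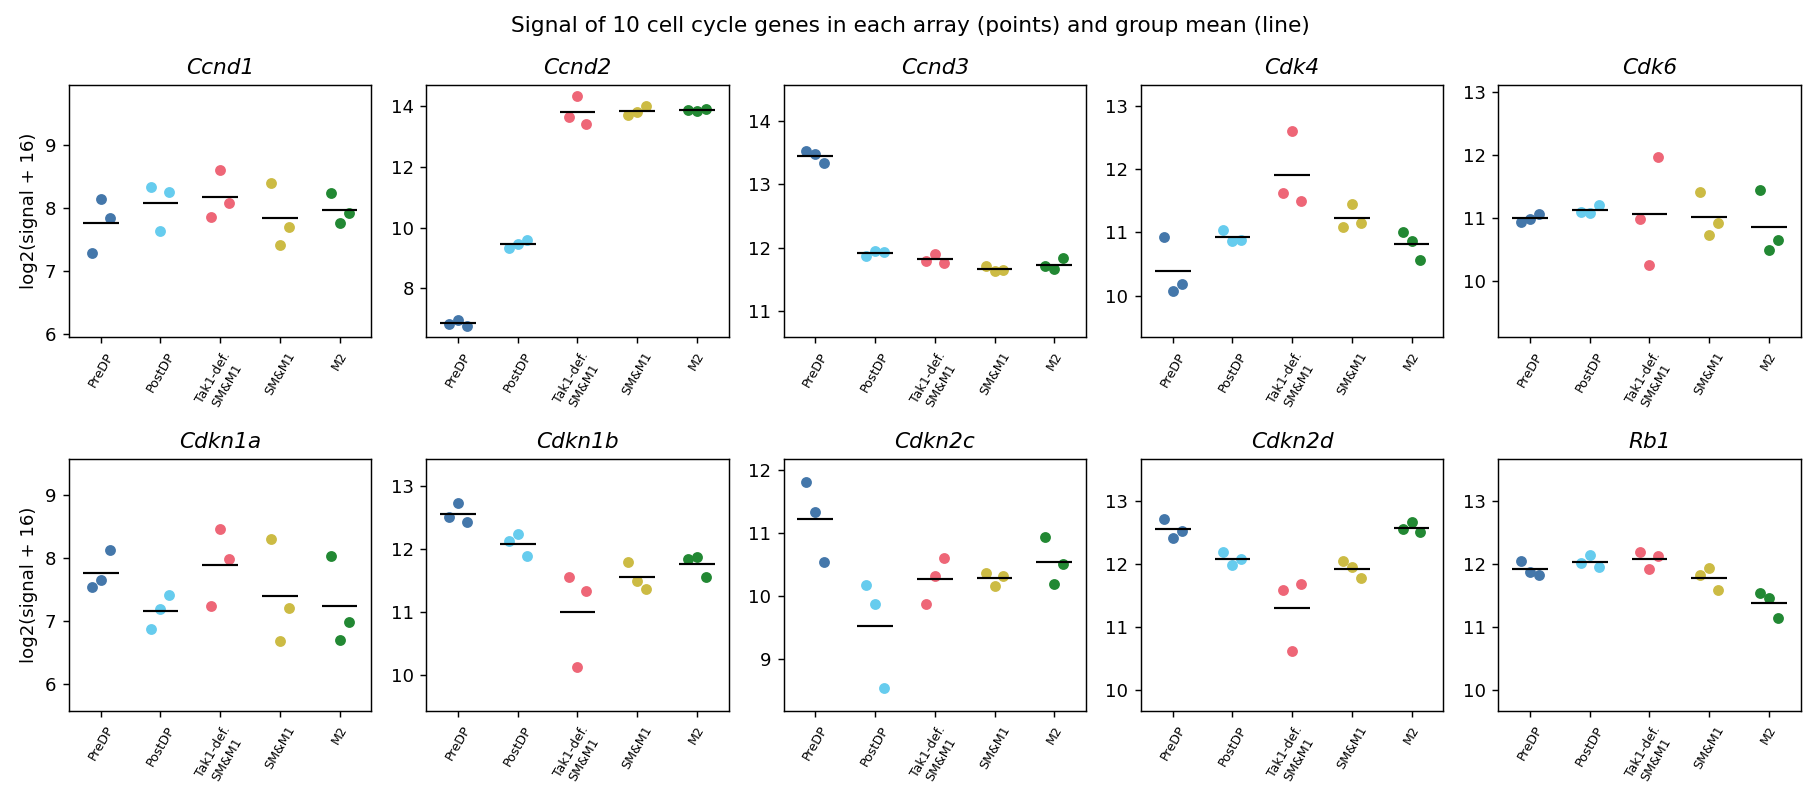
Level of each of the 10 genes as log2(signal + 16) in every array (points, 3 per group) with the group mean (line), by group; the y range differs between panels. Ccnd2 lies between 6.76 and 6.95 in PreDP and at 13.72 or above in SM&M1 and M2 arrays, while Ccnd3 is highest in PreDP.

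The D cyclins changed in opposite directions over the stages. Ccnd2 rose at selection and again in the CD4SP cells, Ccnd3 fell at selection, and Ccnd1 passed no test. Ccnd2, a cyclin known in mature T cells and B cells as an early response to growth signals, read 6.83, 6.95 and 6.76 in the 3 PreDP arrays and 9.32, 9.47 and 9.58 in the PostDP arrays. It read 13.72, 13.81 and 14.01 in SM&M1 arrays and 13.87, 13.86 and 13.91 in M2 arrays. No PostDP array reached an SM&M1 array or was as low as a PreDP array, and the SM&M1 and M2 ranges overlapped. On the linear scale the mean signal was 99.4 for PreDP, 688 for PostDP, 14762 for SM&M1 and 15067 for M2 cells. Ccnd2 was higher by 2.61 ± 0.20 (log2 difference ± SE) in PostDP than in PreDP cells (limma, Benjamini-Hochberg adjusted p = 1.44e-06). The further rise of 4.39 ± 0.20 in SM&M1 against PostDP cells had an adjusted p of 3.70e-08 by limma. From end to end, M2 against PreDP, the difference was 7.03 ± 0.20, or 131-fold on the log2(signal + 16) scale (limma adjusted p = 2.28e-10). M2 and SM&M1 cells differed by 0.03, with a 95% interval from -0.40 to 0.46. In these bulk samples, fewer cells of a type and less RNA per cell cannot be told apart.

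Ccnd3, the D cyclin of the thymocyte expansion named above, read 11.87, 11.94 and 11.93 in PostDP arrays, against 13.52, 13.48 and 13.34 in PreDP arrays. The groups were far apart and each was tight. The log2 difference of -1.53 ± 0.12 had a limma adjusted p of 2.16e-06. Ccnd3 read 11.70, 11.66 and 11.83 in M2 arrays and 11.71, 11.63 and 11.65 in SM&M1 arrays, ranges that overlapped. The SM&M1 values all lay below the PostDP values, but the difference of -0.25 ± 0.12 did not pass (limma adjusted p = 0.221). M2 cells were lower than PreDP cells by -1.71 ± 0.12 (limma adjusted p = 2.36e-07). Ccnd1, a D cyclin better known from epithelial and other non-lymphoid cells, was dim and variable, from 7.30 to 8.61 over all 15 arrays. Its largest group difference among the 5 comparisons was 0.34, in Tak1-deficient against SM&M1 cells (limma adjusted p = 0.561), and the groups overlapped in every comparison.

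**Figure D2:**
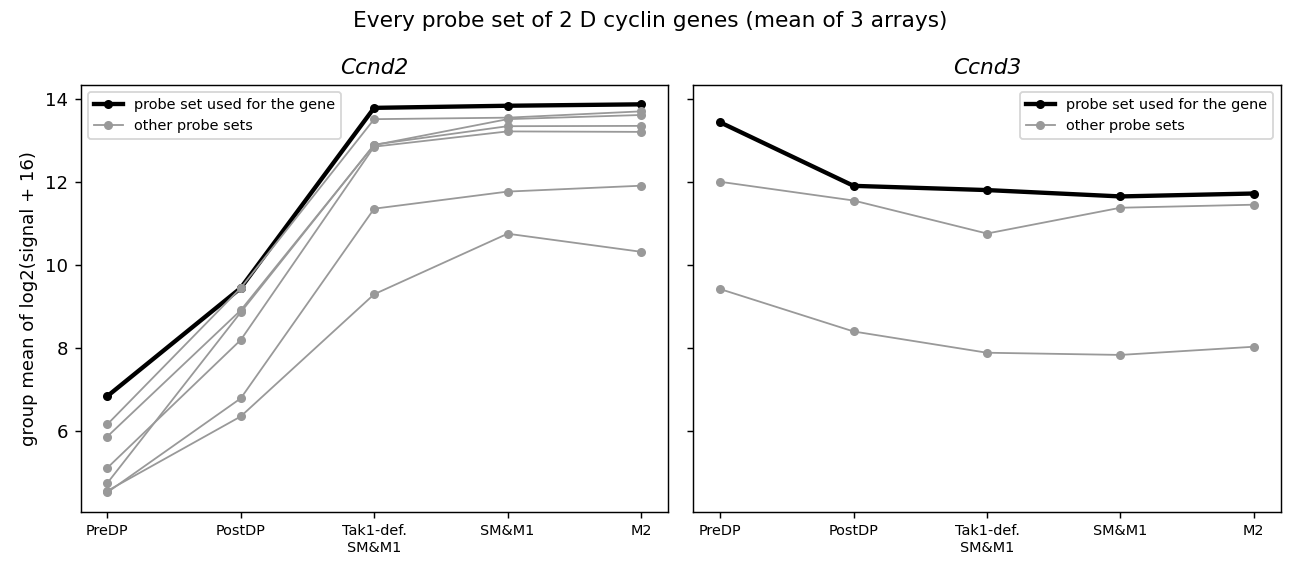
Group means of log2(signal + 16) for every probe set of Ccnd2 and Ccnd3, by group, with lines joining the groups of 1 probe set for the eye only. All 7 Ccnd2 probe sets step up from PreDP to PostDP and from PostDP to SM&M1, and the 3 Ccnd3 probe sets step down to different depths. The Tak1-deficient group is drawn between PostDP and SM&M1 and is not a stage between them. A Ccnd3 probe set dips there, to 10.77 against 11.39 in SM&M1.

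Ccnd2 had 7 probe sets, all above the filter, and all 7 passed at both steps. Their log2 differences ran from 1.79 to 4.11 for PostDP against PreDP and from 4.10 to 5.03 for SM&M1 against PostDP. None of the 7 passed for M2 against SM&M1, where they ran from -0.44 to 0.15. Of the 3 Ccnd3 probe sets, 2 passed at the first step, with -1.53 and -1.02, and the third gave -0.45 (limma adjusted p = 0.185 over probe sets). The size of the Ccnd3 fall therefore differed between its probe sets, while the sign did not.

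The balance of both cyclins was taken within each array, as Ccnd2 minus Ccnd3 on the log2 scale. The value mixes 2 probe sets, so only its change between groups can be read. The mean was -6.60 ± 0.09 for PreDP, -2.46 ± 0.10 for PostDP, 2.18 ± 0.17 for SM&M1 and 2.15 ± 0.06 for M2 arrays (SD, n = 3 each). The shift was 4.14 in PostDP against PreDP and 4.65 in SM&M1 against PostDP, and in both cases the arrays did not overlap. Each had a two-sided exact permutation p of 0.1, which is the smallest that 3 arrays against 3 allow. Ccnd2 and Ccnd3 were each separated at both steps, in opposite directions. The lack of overlap and this p were therefore fixed beforehand and add no support, and only the size of the shift is new. M2 and SM&M1 arrays differed by -0.04 (exact permutation p = 0.8).

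The kinase genes passed no test in any of the 5 comparisons. Cdk4, the kinase gene with the E-boxes shown above, read 10.92, 10.07 and 10.18 in the PreDP arrays and 11.04, 10.86 and 10.89 in the PostDP arrays. It read 11.09, 11.44 and 11.14 in SM&M1 and 11.01, 10.87 and 10.57 in M2 arrays. PreDP replicate 1 lay among the PostDP arrays, while the SM&M1 arrays lay above all PostDP and all M2 arrays. The differences were 0.54 ± 0.28 for PostDP against PreDP, 0.29 ± 0.28 for SM&M1 against PostDP and -0.41 ± 0.28 for M2 against SM&M1 (limma adjusted p = 0.264, 0.610 and 0.815). All 3 Cdk4 probe sets gave these differences to within 0.54 to 0.61, 0.26 to 0.29 and -0.49 to -0.41.

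Cdk6, the partner kinase, was nearly level in double-positive cells and scattered in CD4SP cells. It read 11.10, 11.08 and 11.22 in PostDP arrays, against 10.94, 10.99 and 11.07 in PreDP arrays, a difference of 0.13 ± 0.36 (limma adjusted p = 0.886). The M2 arrays read 11.44, 10.50 and 10.65 and the SM&M1 arrays 11.41, 10.73 and 10.92. Replicate 1 was the highest in both groups. Cdkn1a, the Cip/Kip inhibitor induced by p53, followed the same arrays, with 8.04, 6.69 and 6.99 in M2 and 8.30, 6.68 and 7.21 in SM&M1. A second Cdkn1a probe set, too dim to be tested, read 4.94, 5.79 and 5.12 in M2 and 5.05, 4.65 and 4.64 in SM&M1. In replicate 1 of M2 and of SM&M1, the effector and innate-like marker list stood 1.99 and 1.86 above the PreDP mean, against 0.30 to 0.52 in the other arrays of both groups. The summed linear signal of that list ran from 1071 to 5315 in M2, 840 to 5036 in SM&M1, 1487 to 1568 in PostDP and 3209 to 4775 in PreDP arrays. That of 10 macrophage markers ran from 750 to 1911 in M2, 604 to 1879 in SM&M1, 699 to 897 in PostDP and 485 to 716 in PreDP arrays. Both sums were highest in replicate 1 within M2 and within SM&M1. In Tak1-deficient arrays 1, 2 and 3 they were 1422, 3608 and 4994 for the first list and 778, 3169 and 2369 for the macrophage list. The part of these markers in the Cdk6 and Cdkn1a values was not tested. In the fit of all arrays the SM&M1 against PostDP difference was -0.11 for Cdk6 and 0.23 for Cdkn1a. Without replicate 1 of SM&M1 and of M2 it was -0.30 for Cdk6 and -0.22 for Cdkn1a. Neither gene passed in either fit.

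**Figure D3:**
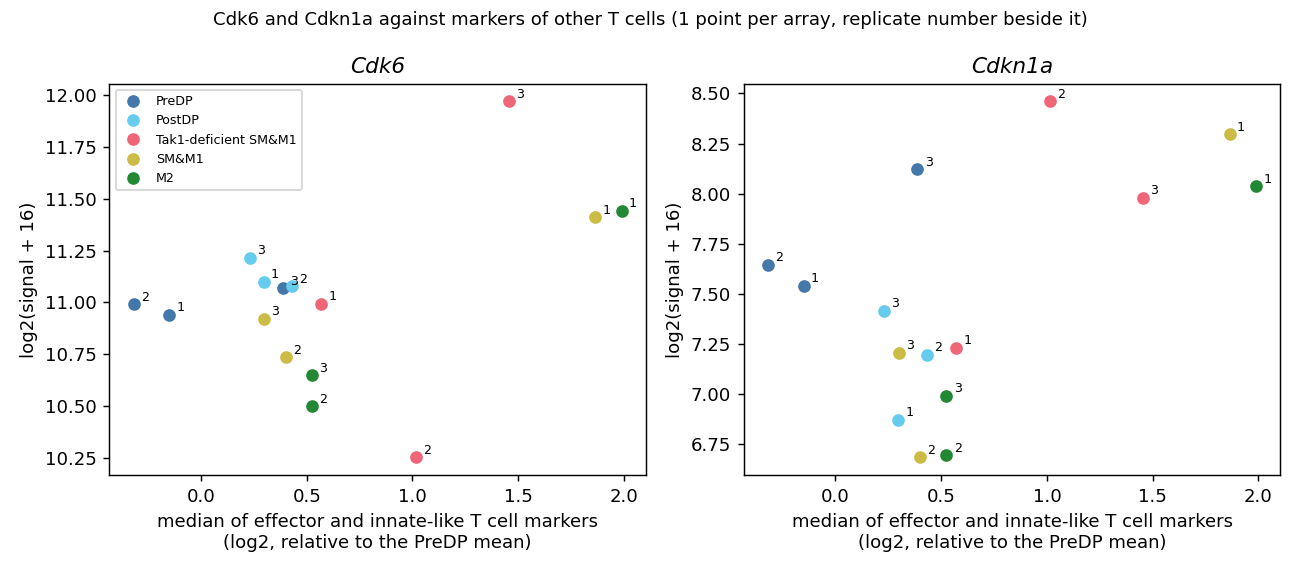
Level of Cdk6 and of Cdkn1a as log2(signal + 16) (y axes) against the median log2 level of the markers of effector, natural killer T or innate-like cells relative to the PreDP mean (x axes), 1 point per array, coloured by group. SM&M1 replicate 1, M2 replicate 1 and Tak1-deficient replicate 3 lie to the right at 1.46 to 1.99 and are the highest Cdk6 arrays of their groups.

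Among the inhibitors, Cdkn2c fell at selection and the others passed no test in the fit of all arrays. Cdkn2c, an INK4 inhibitor of CDK4 and CDK6, read 10.18, 9.88 and 8.54 in PostDP arrays, against 11.82, 11.33 and 10.54 in PreDP arrays. The ranges did not overlap, and replicate 3 was the lowest of both groups. The difference of -1.70 ± 0.40 had a limma adjusted p of 0.0107. It was negative in 3 of 3 same-numbered pairs of arrays, by -1.45 at the least. As the ranges did not overlap, this sign was fixed for any pairing and adds no support. Without PreDP replicate 1 the difference was -1.40 and did not pass (limma adjusted p = 0.0538). The M2 arrays read 10.93, 10.19 and 10.51 and the SM&M1 arrays 10.37, 10.17 and 10.32. The difference of SM&M1 against PostDP was 0.75 ± 0.40 (limma adjusted p = 0.278), with 1 PostDP array inside the SM&M1 range.

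Cdkn2d, the other INK4 inhibitor measured, read 12.19, 11.97 and 12.08 in PostDP arrays, against 12.71, 12.42 and 12.52 in PreDP arrays, a difference of -0.47 ± 0.23 (limma adjusted p = 0.228). It read 12.54, 12.67 and 12.51 in M2 arrays, against 12.04, 11.95 and 11.78 in SM&M1 arrays. These groups did not overlap, and the difference of 0.65 ± 0.23 did not pass in the fit of all arrays (limma adjusted p = 0.241). The M2 against SM&M1 difference passed when only these groups were fitted, without replicate number as a block (limma adjusted p = 0.0396) and with it (0.0433), and did not with the block over all arrays (0.240). For PostDP against PreDP the limma adjusted p was 0.0605 with only the groups fitted, 0.0420 with the block added and 0.217 with the block over all arrays. Without Tak1-deficient replicate 2, whose spread enters the error of every comparison, the same values were 0.00630 and 0.0116. M2 and PreDP cells differed by 0.02 ± 0.23.

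Cdkn1b, the Cip/Kip inhibitor associated with quiescent lymphocytes, passed no test in the fit of all arrays, although its groups were separated at both of the first steps. It read 12.12, 12.23 and 11.89 in PostDP arrays, against 12.50, 12.72 and 12.42 in PreDP arrays. It read 11.83, 11.87 and 11.56 in M2 arrays and 11.78, 11.49 and 11.36 in SM&M1 arrays. PreDP lay above PostDP and PostDP above SM&M1 with no overlap, while SM&M1 and M2 overlapped. The differences were -0.47 ± 0.29 for PostDP against PreDP, -0.53 ± 0.29 for SM&M1 against PostDP and -0.79 ± 0.29 for M2 against PreDP (limma adjusted p = 0.361, 0.291 and 0.0604). A second Cdkn1b probe set gave -0.45, -1.46 and -1.71 for the same comparisons, none of which passed over probe sets. For PostDP against PreDP the limma adjusted p was 0.0789 with only these groups fitted, 0.0441 with the replicate block added and 0.378 with the block over all arrays. Without Tak1-deficient replicate 2 all 3 passed, at 0.0395, 0.0235 and 0.00112. Cdkn1a read 6.87, 7.20 and 7.41 in PostDP arrays, against 7.54, 7.64 and 8.12 in PreDP arrays, a difference of -0.61 ± 0.43 (limma adjusted p = 0.447). With only these groups fitted its limma adjusted p was 0.0950, with the replicate block added 0.0253, and with the block over all arrays 0.486.

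Rb1, the substrate of these kinases, fell in M2 against PreDP cells and passed in no other comparison. It read 12.02, 12.15 and 11.96 in PostDP arrays, against 12.05, 11.88 and 11.83 in PreDP arrays, a difference of 0.12 ± 0.16 (limma adjusted p = 0.723). It read 11.54, 11.47 and 11.15 in M2 arrays, against 11.83, 11.94 and 11.59 in SM&M1 arrays. A second Rb1 probe set, too dim to be tested, gave 1.25 for PostDP against PreDP. In the probe set used, the 3 M2 arrays were the lowest of all 15. The difference of M2 against SM&M1 was -0.40 ± 0.16 (limma adjusted p = 0.320), and that of M2 against PreDP was -0.53 ± 0.16 (limma adjusted p = 0.0205). The call for M2 against PreDP was lost when arrays were centred on their median (0.0903), with the mean of both Rb1 probe sets (0.0828), with the replicate block in a fit of PreDP and M2 arrays alone (0.0525), and without PreDP replicate 1 (0.0666) or M2 replicate 3 (0.103).

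**Figure D4:**
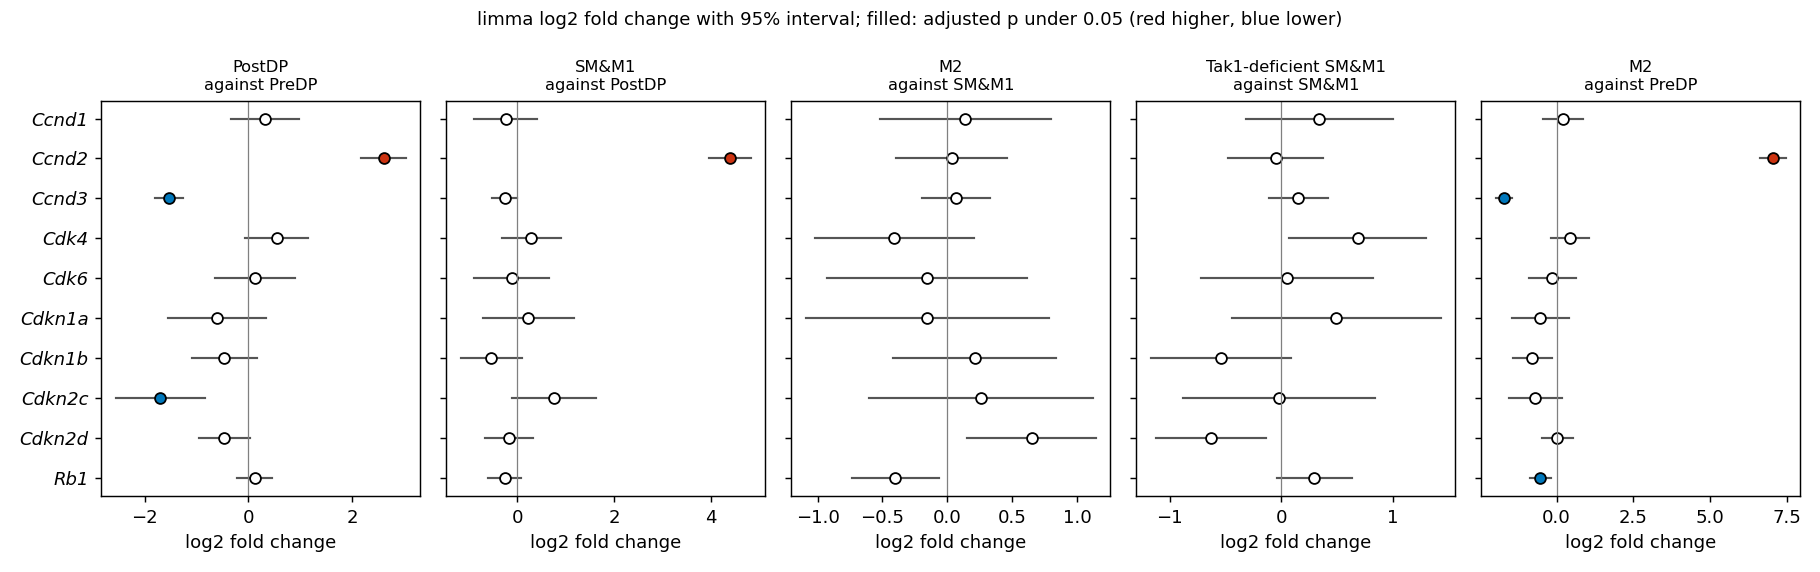
Log2 difference in log2(signal + 16) of each of the 10 genes in the 5 comparisons, with 95% intervals of the limma fit as bars and filled points where the adjusted p is under 0.05. Ccnd2 and Ccnd3 stand far from 0 in PostDP against PreDP, the x ranges differ between panels, and every interval except those of Ccnd2 lies between -2.56 and 1.62.

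By count, 3 of the 10 genes passed for PostDP against PreDP (Ccnd2 higher, Ccnd3 and Cdkn2c lower), where 14.9% of all genes tested passed, 7.35% higher and 7.57% lower. The count was 3 with the replicate block over all arrays, 3 with only the groups compared fitted, 6 with the block in that fit, and 5 without Tak1-deficient replicate 2. For SM&M1 against PostDP only Ccnd2 of the 10 passed, as a rise, against 12.0% of all genes, 7.84% higher and 4.14% lower, and without Tak1-deficient replicate 2 Cdkn1b passed too. For M2 against PreDP 3 of 10 passed (Ccnd2 higher, Ccnd3 and Rb1 lower), where 27.1% of all genes did, 14.6% higher and 12.5% lower. For M2 against SM&M1 0 of 10 passed in the limma fit, where 2.33% of all genes did, and 2 had an unadjusted p under 0.05 (Cdkn2d and Rb1). The count stayed 0 with the replicate block over all arrays, and was 1 (Cdkn2d) with only these groups fitted, with or without the block. Groups did not overlap for 7 of 10 genes in PostDP against PreDP (38.7% of all genes), 5 in SM&M1 against PostDP (40.9%), 3 in M2 against SM&M1 (23.6%) and 4 in M2 against PreDP (47.7%). The median log2 difference of the 10 genes was -0.17, -0.13, 0.05 and -0.33 in these comparisons, against 0.01, 0.03, -0.01 and 0.05 over all genes tested. These comparisons share arrays, so their counts are not independent.

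None of the 10 genes passed between Tak1-deficient and Tak1-sufficient SM&M1 cells. In the limma fit 0 of 10 passed between them, where 1.69% of all genes did, and 2 had an unadjusted p under 0.05 (Cdk4 and Cdkn2d). Groups did not overlap for 3 of 10, against 20.3% of all genes. Ccnd2 read 13.65, 14.32 and 13.42 in Tak1-deficient arrays, beside the 13.72 to 14.01 of SM&M1 arrays. The difference was -0.05 with a 95% interval from -0.48 to 0.38, and without replicate 2 it was -0.31 (limma adjusted p = 0.229). Over the 7 Ccnd2 probe sets the difference ran from -1.46 to -0.04, all negative and none past the threshold, and their mean gave -0.48 (limma adjusted p = 0.109). The lowest was from a probe set that read 9.49, 8.37 and 10.05 in Tak1-deficient arrays, against 10.80, 11.06 and 10.43 in SM&M1 arrays. Ccnd3 read 11.78, 11.91 and 11.76 in Tak1-deficient arrays, all above the 11.63 to 11.71 of SM&M1 arrays, a difference of 0.15 ± 0.12 (limma adjusted p = 0.513). The other Ccnd3 probe sets gave differences of -0.62 and 0.05, so its probe sets did not share a sign. The balance of Ccnd2 over Ccnd3 was 1.98 ± 0.39 in Tak1-deficient arrays and 2.18 ± 0.17 in SM&M1 arrays (SD, n = 3 each; exact permutation p = 0.5).

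Cdk4 read 11.62, 12.60 and 11.51 in Tak1-deficient arrays, against 11.09, 11.44 and 11.14 in SM&M1 arrays. All 3 lay above the SM&M1 range, and replicate 2 was the highest of all 15 arrays. The difference of 0.69 ± 0.28 did not pass (limma adjusted p = 0.238) and was 0.34 without replicate 2. The probe sets of Cdk4 parted in that array, where they read 12.60, 12.04 and 10.16, and the last of them gave a group difference of -0.13. Cdkn2d read 11.58, 10.62 and 11.68 in Tak1-deficient arrays, below all SM&M1 arrays at 11.78 to 12.04. Its difference of -0.63 ± 0.23 (limma adjusted p = 0.189) was -0.29 without replicate 2. Cdkn1b read 11.55, 10.13 and 11.33, against 11.78, 11.49 and 11.36 in SM&M1 arrays, and its difference of -0.54 ± 0.29 was -0.11 without replicate 2. The second Cdkn1b probe set gave a difference of 0.05 and went the other way in that array, with 7.12, 9.20 and 6.83 in Tak1-deficient arrays, against 7.97, 8.21 and 6.83 in SM&M1 arrays. In the probe sets used for Cdk4, Cdkn1b and Cdkn2d, the array with the raised signal ratio of Actb was the outermost of its group. The part of RNA quality in these values was not tested. Cdk6 read 10.99, 10.25 and 11.97 and Cdkn1a 7.23, 8.46 and 7.98 in Tak1-deficient arrays, and their differences of 0.05 ± 0.36 and 0.49 ± 0.43 did not pass. Cdkn2c (-0.02 ± 0.40) and Rb1 (0.30 ± 0.16) did not pass either. A second probe set of Cdk6 gave 0.45 without passing, and that of Rb1, too dim to be tested, gave -0.50.

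Other cell cycle genes, called the other G1/S genes here, were read from a list of 51, of which 46 were tested. The list also holds genes not particular to the G1 to S transition, such as Cdk1, Ccnb2 and Mki67. Its counts and medians therefore do not describe that transition alone. In PostDP against PreDP cells 1 of 46 was higher and 16 were lower, with a median of -0.36. Of all genes tested, 7.35% were higher and 7.57% lower. The 3 largest falls were those of E2f8, an atypical repressor E2F, at -4.12 ± 0.67, Ccne2, a cyclin that activates CDK2, at -3.73 ± 0.44, and Mki67, a marker of cycling cells, at -3.66 ± 0.56 (limma adjusted p = 0.000890, 6.43e-05 and 0.000563). Myc, a growth-promoting transcription factor, was the only one of the 46 that rose, by 1.32 ± 0.20 (limma adjusted p = 0.000546). Mki67 read 9.34, 7.36 and 7.13 in PostDP arrays, against 12.33, 11.09 and 11.40 in PreDP arrays. Ccnd3 and Cdkn2c also fell in this comparison, while Ccnd2 was higher in PostDP. Within PostDP, replicate 1 had the highest Mki67 and Cdkn2c but the lowest Ccnd3. In SM&M1 against PostDP cells Mki67 rose by 2.63, while Ccnd3 gave -0.25 and Cdkn2c 0.75. The part of cycling cells in these differences was not tested.

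In SM&M1 against PostDP cells 11 of the 46 were higher and 2 were lower, with a median of 0.50. Of all genes tested, 7.84% were higher and 4.14% lower. The largest rises were Cdk1, the mitotic kinase, at 2.97 ± 0.74, Mki67 at 2.63 ± 0.56 and E2f8 at 2.54 ± 0.67 (limma adjusted p = 0.0183, 0.00767 and 0.0251). Mki67 read 11.08, 10.34 and 10.31 in SM&M1 arrays, all above the PostDP arrays and all below the PreDP arrays. The falls were Rbl2, a relative of Rb1 in the complex that silences cell cycle genes in quiescence, at -1.28 ± 0.26 and Cdkn1c, the remaining Cip/Kip inhibitor, at -0.97 ± 0.26 (limma adjusted p = 0.00588 and 0.0258). Rbl1, another relative of Rb1 and named beside it after its values were seen, rose by 1.02 ± 0.22 (limma adjusted p = 0.00787), while Rb1 itself gave -0.25 ± 0.16. The count of 13 fell to 7 without SM&M1 replicate 1 or without PostDP replicate 3, to 8 without PostDP replicate 2 and to 6 without replicate 1 of SM&M1 and M2. It was 23 without Tak1-deficient replicate 2.

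In M2 against SM&M1 cells 0 of the 46 passed in the limma fit, where 2.33% of all genes did, and 6 had an unadjusted p under 0.05. The count was 0 with the replicate block over all arrays, 2 with only these groups fitted and 4 with the block in that fit. Without Tak1-deficient replicate 2 the count was 7. In M2 against PreDP cells 5 were higher and 8 lower, with a median of -0.32. Of all genes tested, 14.6% were higher and 12.5% lower. The share of the list that passed was thus close to the 27.1% of all genes. The rises were led by Foxo1, a transcription factor of quiescent naive T cells, at 2.43 ± 0.25, Myc at 2.30 ± 0.20 and E2f6, a repressor E2F, at 1.19 ± 0.17 (limma adjusted p = 6.72e-06, 1.60e-06 and 9.90e-05). Foxo1 read 12.28, 12.61 and 12.67 in M2 arrays, against 10.03, 9.91 and 10.35 in PreDP arrays. The falls were led by Ccne2 at -2.38 ± 0.44, Skp2, whose product marks the protein of Cdkn1b for degradation, at -1.83 ± 0.33, and E2f2, an activator E2F, at -1.67 ± 0.27 (limma adjusted p = 0.00104, 0.000908 and 0.000334). Without Tak1-deficient replicate 2 the total was 20.

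In Tak1-deficient against SM&M1 cells 1 of the 46 passed, where 1.69% of all genes tested did. Btg2, an antiproliferative gene, read 10.11, 11.18 and 10.30 in Tak1-deficient arrays, against 12.11, 11.51 and 11.65 in SM&M1 arrays. The groups did not overlap, and the difference of -1.23 ± 0.28 had a limma adjusted p of 0.0457. No gene of the list passed in a fit of these 2 groups alone. Leaving out a single array also gave 0, except PreDP replicate 3, which gave 1, and Tak1-deficient replicate 2, which gave 2. Mki67 read 10.32, 11.27 and 11.60 in Tak1-deficient arrays, a range that overlapped SM&M1.

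**Figure D5:**
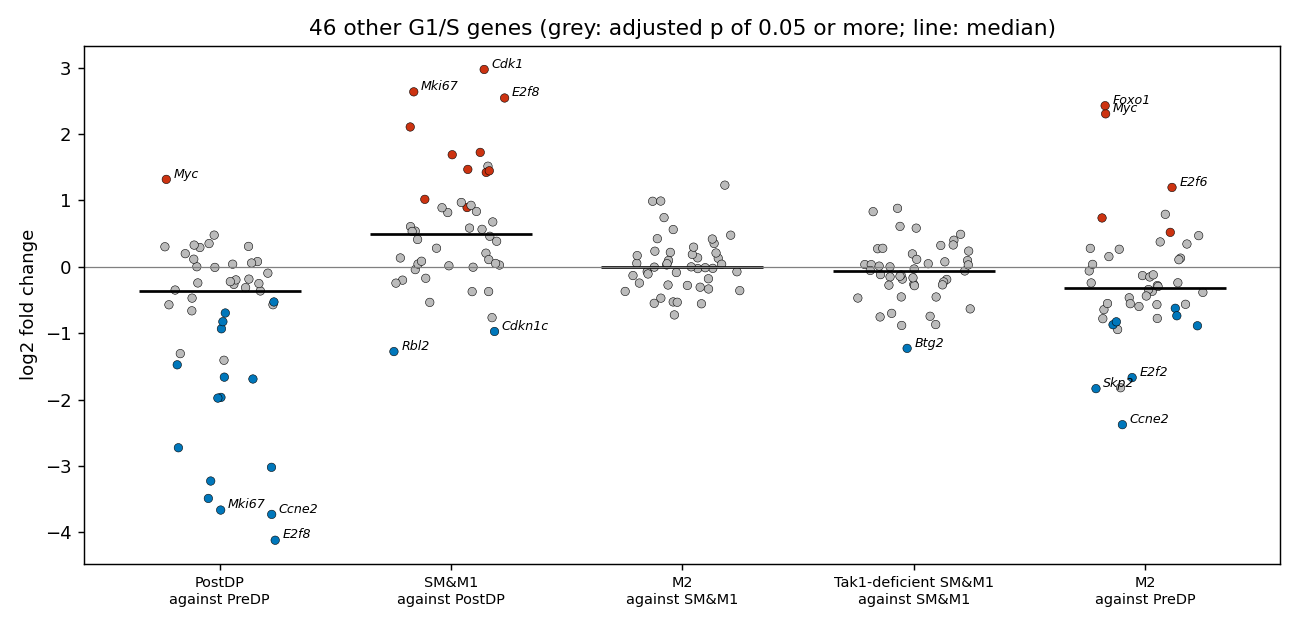
Log2 difference in log2(signal + 16) of the 46 other G1/S genes tested, 1 point per gene, in the 5 comparisons; coloured points have a limma adjusted p under 0.05, the line is the median and up to 3 called genes each way are named. Points lie mostly below 0 in PostDP against PreDP and mostly above 0 in SM&M1 against PostDP.

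For each of the 4 genes called at least once, the most alike genes by level over the 15 arrays were named as a description. Genes with only a provisional symbol, such as Rik clones and predicted Gm genes, were left out of the ranking. The arrays share groups and 1 normalization, so no p is given. Ccnd2 was followed most closely by Samhd1 (Pearson r = 0.990) and Enc1 (0.989), and Ccnd3 by Nron (0.987) and Insl5 (0.983). Cdkn2c was followed by Fanci (0.905) and Cdkn3 (0.891), and Rb1 by Kif7 (0.905) and Repin1 (0.901). Among the 10 genes themselves, r was -0.86 between Ccnd2 and Ccnd3, -0.87 between Cdk4 and Cdkn1b, -0.85 between Cdk4 and Cdkn2d and 0.82 between Cdkn1b and Cdkn2d. The 3 coefficients that do not involve the D cyclins include Tak1-deficient replicate 2, which was the extreme array for Cdk4, Cdkn1b and Cdkn2d.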

How the data were processed

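RNA from sorted mouse thymocytes was amplified in a single round, biotin-labelled and hybridised to Affymetrix mouse arrays, with 15 samples on 15 arrays, per the labels' protocols. The authors deposited a linear signal intensity for each of 45101 probe sets. How that intensity was computed is not given in the sources used here. Each array's mean after trimming 2% at each end is 500. No further normalization was applied, and a pseudocount of 16 was added before taking log2.

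Of the probe sets, 34945 named 1 gene in the platform annotation, 932 named several and were left out of gene tests, 9160 had no name here, and 64 were controls for hybridisation. For 34741 a current symbol came from RefSeq (GRCm38.p6). The brightest probe set on average stood for each of 18193 genes, and testing was limited to the 11871 genes above the array median in 3 or more arrays. The labels gave the groups. limma 3.58.1 in R 4.3.3 fitted 1 mean per group over all arrays (10 residual degrees of freedom), with Benjamini-Hochberg adjustment over all genes tested and calls at an adjusted p under 0.05. Probe sets were tested in a fit over probe sets. Each SD covers the 3 arrays of 1 group, and that number limits the precision.

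The 10 genes and the gene lists were chosen with earlier results of these data known. Named genes were the 10, the check genes, and up to 3 largest called rises and falls per comparison among the other G1/S genes. The 2 genes most correlated with each called member were also named, leaving out provisional symbols. Of the 51 other G1/S genes, Ccnb1 and Trp53 lacked a probe set naming them alone, and Cdkn2a, Cdkn2b and Mycn were too dim to test.

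Same-numbered arrays deviated together from their group means between PreDP and PostDP (r = 0.339, 0.275 and 0.411) and between SM&M1 and M2 (0.553, 0.436 and 0.326). The replicate numbers of the labels were therefore taken as pairs there, but the main fit does not use these pairs. Between Tak1-deficient and SM&M1 arrays the same r were -0.174, -0.192 and -0.244. A block over all arrays thus also spans groups without such pairs, and cannot show that pairing is immaterial. On simulated data with 200 of 11871 genes changed, the fit recovered 40% of 2-fold and 93% of 4-fold changes for PostDP against PreDP, and 43% and 93% between Tak1-deficient and SM&M1 cells. False calls were 6.34% and 2.16% of the calls in these comparisons. They were 8.92% for SM&M1 against PostDP, 8.75% for M2 against PreDP and 2.82% for M2 against SM&M1. In the real data 14.9% of all genes were called for PostDP against PreDP and 1.69% between Tak1-deficient and SM&M1 cells. The simulated recovery holds for its own share of changed genes and need not carry over to PostDP against PreDP.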

Additional observations from a re-analysis of the deposited data

How the results depend on the processing

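Over 50 log2 differences (10 genes, 5 comparisons) and their alternatives, 1298 of 1325 values kept the side of the threshold. Of the rest, 21 passed only under the alternative, 6 passed only in the fit of all arrays and 0 called values changed sign. The 1298 include differences that passed in neither fit and changed sign. Cdkn1a in SM&M1 against PostDP, for example, gave 0.23 in the fit of all arrays and -0.22 at the lowest. The Ccnd2 and Ccnd3 calls were kept under every alternative run. The count of the 10 genes called for PostDP against PreDP was 3 with a replicate block over all arrays, 6 with the block when only the groups compared were fitted, 5 without the Tak1-deficient group (an alternative added after seeing the data) and 2 to 5 with 1 array left out. For SM&M1 against PostDP it was 2 without the Tak1-deficient group and 1 to 2 with 1 array left out. For M2 against SM&M1 it was 1 when only the groups compared were fitted, 1 with the replicate block in that fit, 0 with the block over all arrays and 1 without the Tak1-deficient group, and 0 to 1 with 1 array left out. It was 0 under every alternative between Tak1-deficient and SM&M1 cells, and 2 to 4 for M2 against PreDP with 1 array left out. The shift of Ccnd2 over Ccnd3 in PostDP against PreDP was 4.04 with quantile normalization, 3.89 with the mean of all probe sets and 4.31 with a pseudocount of 1, and with 1 array left out 4.08 to 4.18. In SM&M1 against PostDP it was 4.90 with the mean of all probe sets and 4.56 to 4.73 with 1 array left out. The causes were not tested. The replicate block over all arrays changed no call among the 10 genes. For M2 against PreDP, Cdkn1b had a limma adjusted p of 0.0701 with that block, 0.00777 when only the groups compared were fitted and 0.0149 with the block in that fit, and Rb1 had 0.0192, 0.0397 and 0.0525.

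Centring each array on its median moved the median of all genes to -0.13 for PostDP against PreDP and -0.10 for M2 against PreDP. The share of calls that were higher was then 36.1% (49.3% without centring) and 44.5% (53.9%), and 13.4% (25.4%) between Tak1-deficient and SM&M1 cells. That last comparison had 201 calls over all genes, 5 when only the groups compared were fitted. Ccnd1 and Cdkn1a had low signal, which limits what their values can show.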
